A study of Mus musculus with 3 samples.

Results

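The subject here is a set of 10 genes for RNA-binding proteins that govern how long inflammatory mRNAs last: Zfp36, Zfp36l1, Zfp36l2, Zc3h12a, Zc3h12c, Rc3h1, Rc3h2, Elavl1, Khsrp and Hnrnpd. They were taken by name, with no threshold on a measured value, and all 10 were found once each among the 55536 gene rows of the deposited tables, 22028 of them protein-coding. RNA came from the cytosolic fraction of macrophages grown from bone marrow of C57BL/6J mice, with no allele other than the strain's own named in the labels. All cells shared the same history: 100 ng/ml Lipid A, the part of bacterial lipopolysaccharide that Toll-like receptor 4 senses, for 12 h, then washout for 12 h, then 100 ng/ml Lipid A once more for 120 min. The 3 libraries form 1 group of biological replicates made from total RNA after ribosomal RNA depletion. They share a single donor entry, and neither age nor sex was recorded. The labels do not say whether they came from separate mice or dishes, so their spread may be technical. No cells without Lipid A are part of the group, so each value below is a level after the second exposure and not a response to it.

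Unstable cytokine mRNAs carry signals in the 3′ untranslated region (3′ UTR) that recruit such proteins. Tristetraprolin, encoded by Zfp36, and its relatives from Zfp36l1 and Zfp36l2 bind AU-rich elements and bring in the CCR4-NOT complex, which removes the poly(A) tail. Regnase-1, encoded by Zc3h12a, is an endonuclease that cuts mRNAs at small stem-loops, Zc3h12c encodes a related nuclease, and the Roquin proteins, encoded by Rc3h1 and Rc3h2, bind stem-loops of the same kind and also recruit deadenylation. HuR, encoded by Elavl1, binds AU- and U-rich sequence and mostly stabilises, KSRP, encoded by Khsrp, promotes decay, and AUF1, encoded by Hnrnpd, can do either. In macrophages these proteins limit cytokine output, and several of their own mRNAs are Lipid A-induced and subject to the same control.

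The sequences below show these signals in transcripts present in the libraries, first the nonamer TTATTTATT that tristetraprolin binds best and then the stem-loop letters, TTC and GAA around a middle triplet of pyrimidine, purine and pyrimidine. They are written 5′ to 3′ in the sense of the mRNA from GENCODE M21 transcripts, with T for U, and capitals mark the letters searched for. The first 3 are cytokine, chemokine and cyclooxygenase mRNAs, the next 3 are the tristetraprolin family's own mRNAs, and the last 3 carry the stem-loop letters.
Tnf nonamers, mm10 chr17:35199671-35199700, minus strand: TTATTTATTTATTATTTATTTATTtgctta
Cxcl2 nonamers, mm10 chr5:90905340-90905369, plus strand: atgtatTTATTTATTTATTaattccattgc
Ptgs2 nonamer, mm10 chr1:150105790-150105819, plus strand: ctgaccatatTTATTTATTtatgtgaagaa
Zfp36 nonamer, mm10 chr7:28376950-28376979, minus strand: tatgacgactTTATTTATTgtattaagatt
Zfp36l1 nonamer, mm10 chr12:80108166-80108195, minus strand: aactgttggaTTATTTATTttagaaattct
Zfp36l2 nonamer, mm10 chr17:84184913-84184942, minus strand: actatttaacTTATTTATTatcttgtgaaa
Tnf stem-loop letters, mm10 chr17:35199583-35199601, minus strand: atgttTTCTGTGAAaacgg
Nfkbiz stem-loop letters, mm10 chr16:55812612-55812630, minus strand: gttgtTTCTATGAAacaaa
Ier3 stem-loop letters, mm10 chr17:35822872-35822890, plus strand: gtatgTTCTGTGAAcacga

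The 3′ UTR of each gene's leading coding transcript was searched on the mRNA strand only, with overlapping matches counted separately. For Hnrnpd, whose leading coding transcript Hnrnpd-210 has no annotated 3′ UTR, Hnrnpd-203 was used. Tnf held 5 nonamers and Cxcl2 held 4. The stretches shown above hold only part of these, in overlapping runs. Of the 10 regulators, 5 held the nonamer, once each: the 3 tristetraprolin family genes, Rc3h1 and Rc3h2. For comparison, 567 of 8569 protein-coding genes at 1 TPM (a library-scaled, length-scaled transcript level) or more in every library held it, or 6.62%. Long 3′ UTRs hold more matches of any kind, and the median 3′ UTR was 1732 bases for the regulators and 905 for the 8569 genes. Among genes whose 3′ UTR is within 20% of the same length, the share with a nonamer was 4.23% for Zfp36, 7.89% for Zfp36l1, 7.80% for Zfp36l2, 29.1% for Rc3h1 and 19.2% for Rc3h2. The long 3′ UTRs of the Roquin genes thus sit in a class where the nonamer is frequent, and the short one of Zfp36 in a class where it is rare. The stem-loop letters were in 2 of the 10, Rc3h1 with 2 matches and Rc3h2 with 1, against 440 of the 8569 genes, or 5.13%. Among genes of like 3′ UTR length the share was 22.3% for Rc3h1 and 18.9% for Rc3h2. The sequences shown above are from genes with a match, and many described targets had none. Of the 23 mRNAs with described AU-rich elements listed further below, 12 held the nonamer. Of the 10 described stem-loop targets, 4 held the stem-loop letters. A match is a run of letters and not a measured binding site.

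All 10 regulators were present in every library, and they spanned about an order of magnitude. In the deposited gene tables Zfp36 was the highest and Rc3h2 the lowest in each of the 3 libraries. Levels are TPM, which is scaled for transcript length, from the deposited gene tables. The median of the 10 was 30.3, 15.8 and 19.6 TPM in replicates 1, 2 and 3, against 8.70, 7.57 and 7.82 TPM for the 8612 protein-coding genes that reached 1 TPM in all libraries. In the order of mean TPM, the neighbours whose libraries did not overlap were Zfp36 above Hnrnpd, Elavl1 above Khsrp and Zfp36l2 above Rc3h1. The other 6 neighbouring pairs overlapped across libraries. Within each library, 3 of those 6 kept their order in 3 of 3 libraries: Zc3h12c over Zfp36l1, Khsrp over Zfp36l2 and Rc3h1 over Rc3h2. The second deposited quantification, summed per gene, kept Rc3h2 lowest in each library. There Zfp36 was above Hnrnpd in replicate 1, at 39.7 against 19.4 TPM, and below it in replicates 2 and 3, at 26.2 against 28.3 and 22.3 against 23.4, so the first rank of Zfp36 in every library holds in the gene tables only.

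**Figure D1:**
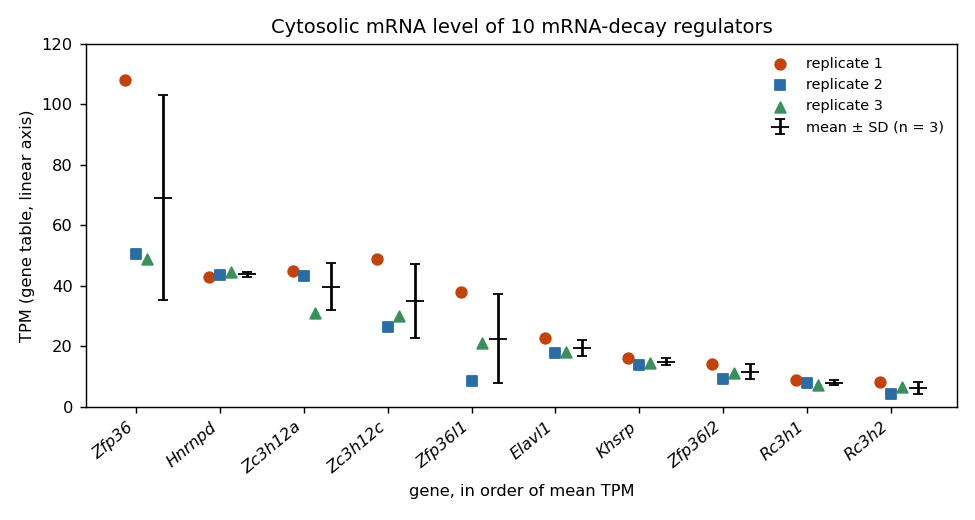
TPM of each regulator in the 3 libraries (coloured points, linear axis) with the mean and SD beside them (black, n = 3), in order of mean TPM. Zfp36 in replicate 1, at 108 TPM, stands above every other point, and the points of Hnrnpd lie within 42.9 to 44.7 TPM.

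A few facts of the libraries bear on these values. They held 29376859, 64822118 and 37665844 expected counts, and 57.9% to 63.3% of the deposited TPM fell on Rn7s1 and Rn7s2, RNAs of the signal recognition particle, which lowers the TPM of all other genes alike within a library. Replicate 3 stood apart in nuclear-retained RNA: Malat1 was at 952 TPM there, against 191 and 133 in replicates 1 and 2, Neat1 at 55.6 against 14.3 and 10.9, and mitochondrial transcripts at 1.46% of protein-coding TPM against 0.473% and 0.470%. Their part in the results was not tested. The macrophage label held, with 10 of 10 macrophage markers at 1 TPM or more in every library and 1 of 22 markers of other cell types, the neutrophil gene S100a8, at 2.08 ± 0.57 TPM (SD, n = 3). In a bulk sample, fewer cells expressing a gene and less RNA per cell cannot be told apart.

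To ask whether a gene departed from counting error between libraries, a chi-square test was run on the expected counts of 14568 genes with TMM scaling (a correction for library composition) and Benjamini-Hochberg adjustment over all of them. It compares these libraries and not conditions. At an adjusted p under 0.05 it called 72% of all genes and 9 of the 10 regulators, a share that has to be read against the deep counting of these genes. Among the 2762 genes with at least as many counts as the least-counted regulator, Elavl1 with 8198 in all, 96.0% were called. A departure of more than 2-fold between the highest and lowest library was called for 19.5% of all genes, for 3.11% of the well-counted ones and for 2 regulators, Zfp36 and Zfp36l1. The median range was 0.48 on the log2 scale for the regulators, 0.44 for all genes tested and 0.30 for the well-counted genes. By direction on the TMM scale, 6 called regulators were highest in replicate 1, where 20.8% of all genes were called and highest. Well-counted genes leaned the same way: 62.4% of them, and 8 of the 10 regulators, lay higher in replicate 1 than in the mean of the others. Another 2, Zc3h12a and Khsrp, were called and highest in replicate 2, as were 28.4% of all genes. Hnrnpd alone was called and highest in replicate 3, as were 22.8%. In deposited TPM, Zc3h12a and Khsrp were highest in replicate 1, at 45.1 and 16.2. Protein-coding genes held 32.5%, 26.5% and 27.1% of the deposited TPM in replicates 1, 2 and 3.

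**Figure D2:**
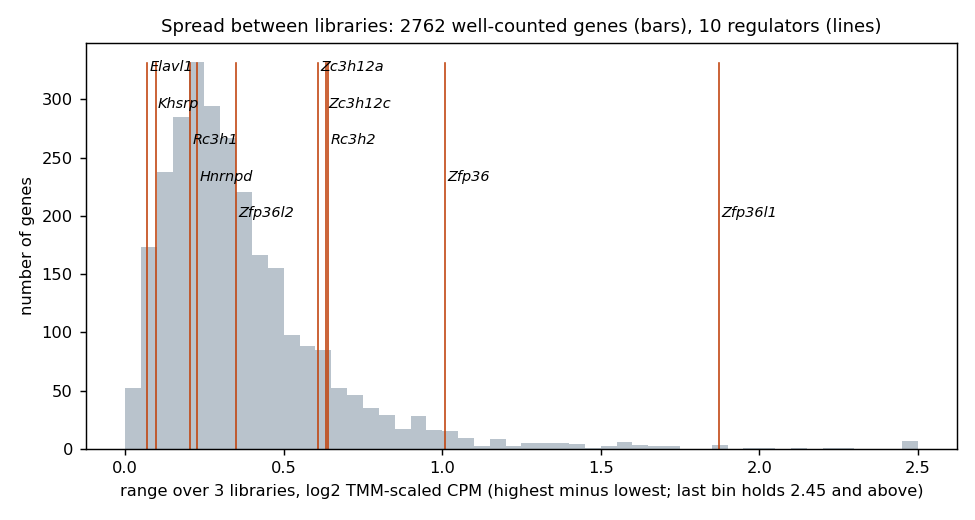
Histogram of the range between the highest and lowest library on the log2 scale of TMM-scaled CPM (library-scaled counts), for the 2762 well-counted genes (grey bars, number of genes), with the range of each regulator as a line. Elavl1 and Khsrp lie at the left edge at 0.07 and 0.10, and Zfp36 and Zfp36l1 in the right tail at 1.01 and 1.87.

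The tristetraprolin family was led by Zfp36 and held the regulators that varied most between libraries. Zfp36 (ENSMUSG00000044786.6, mm10 chr7:28376784-28380253, minus strand) stood at 108, 50.4 and 49.02 TPM in replicates 1, 2 and 3, a mean of 69.2 ± 33.8 (SD, n = 3). Replicate 1 was high and the others lay close together. The range on the log2 TMM scale was 1.01, wider than in 96.9% of the well-counted genes (chi-square statistic 3293), and was 0.17 without replicate 1, when the mean level was 49.7 TPM.

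Zfp36l1 (ENSMUSG00000021127.7, mm10 chr12:80107754-80113013, minus strand), which shares the zinc-finger RNA-binding domain of tristetraprolin, stood at 37.98, 8.60 and 21.1 TPM, a mean of 22.6 ± 14.7 (SD, n = 3). Each library was far from the others, with replicate 2 the lowest. This was the widest range among the 10, 1.87 on the log2 TMM scale (chi-square statistic 3397), wider than in 99.5% of the well-counted genes. It was 1.16 without replicate 1 and 0.72 without replicate 2. The mean level moved from 22.6 to 14.8 TPM without replicate 1 and to 29.5 TPM without replicate 2. In rank among the regulators Zfp36l1 was the fifth in replicates 1 and 3 and the eighth in replicate 2.

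Zfp36l2 (ENSMUSG00000045817.8, mm10 chr17:84183931-84187947, minus strand), the third family member, stood at 14.1, 9.22 and 11.3 TPM, a mean of 11.6 ± 2.46 (SD, n = 3). Its range was 0.35 on the log2 TMM scale, near the middle of the well-counted genes, of which 59.1% had a narrower one. Its adjusted p in the chi-square test was 1.15e-17, and the range was 0.17 and 0.19 without replicate 1 and without replicate 2.

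Within each library Zfp36 was above both relatives. The log2(TPM + 1) difference of Zfp36 over Zfp36l1 was 1.49, 2.42 and 1.18 in replicates 1, 2 and 3, a mean of 1.70 ± 0.65 (SD, n = 3). Over Zfp36l2 it was 2.85, 2.33 and 2.02, a mean of 2.40 ± 0.42. Both had the same sign in 3 of 3 libraries, where an exact two-sided sign-flip permutation test cannot give a p below 0.25. Zfp36l1 against Zfp36l2 had no fixed order: the difference was 1.37 and 0.84 in replicates 1 and 3 and -0.09 in replicate 2, a mean of 0.71 ± 0.74. That mean was 0.38 without replicate 1 and 1.10 without replicate 2. Of the summed TPM of the family, Zfp36 held 67.5%, 73.9% and 60.2%. Zfp36l3, a placental relative, was listed at 0 in every library.

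The Regnase family was led by Zc3h12a and Zc3h12c at much the same level. Zc3h12a (ENSMUSG00000042677.7, mm10 chr4:125118423-125127840, minus strand) stood at 45.1, 43.3 and 30.9 TPM, a mean of 39.8 ± 7.70 (SD, n = 3), the third-highest regulator in each library. Replicate 3 was the low one. Its range was 0.61 on the log2 TMM scale with an adjusted p of 1.2e-146 in the chi-square test, and 0.21 without replicate 3.

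Zc3h12c (ENSMUSG00000035164.8, mm10 chr9:52111344-52168572, minus strand) stood at 48.95, 26.2 and 29.9 TPM, a mean of 35.0 ± 12.2 (SD, n = 3). Replicate 1 was the high one, as for Zfp36. The range was 0.63 on the log2 TMM scale (chi-square statistic 1877) and 0.06 without replicate 1.

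Which of these nucleases was higher differed between libraries. The log2(TPM + 1) difference of Zc3h12a over Zc3h12c was -0.12, 0.70 and 0.05, a mean of 0.21 ± 0.43 (SD, n = 3), and -0.03 without replicate 2. Zc3h12d, a further family member, was lower at 9.35, 4.54 and 6.31 TPM, and Zc3h12b was near 0 at 0.02, 0.03 and 0.06 TPM. Zc3h12a and Zc3h12c together with these made a family sum of 103, 74.1 and 67.2 TPM, of which Zc3h12a was 43.6%, 58.4% and 46.0%. Further relatives with the same kind of nuclease domain, N4bp1 and Khnyn, stood at 21.7 ± 4.56 and 3.28 ± 0.65 TPM.

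The Roquin genes were the lowest regulators in every library. Rc3h1 (ENSMUSG00000040423.10, mm10 chr1:160906418-160974978, plus strand) stood at 8.86, 7.99 and 7.09 TPM, a mean of 7.98 ± 0.89 (SD, n = 3). Its range was 0.20 on the log2 TMM scale with an adjusted p of 1.02e-12 in the chi-square test. Without replicate 3 the range was 0.04 and the adjusted p of the chi-square test 0.211, so that departure rests on replicate 3.

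Rc3h2 (ENSMUSG00000075376.10, mm10 chr2:37370069-37422903, minus strand) stood at 8.04, 4.20 and 6.60 TPM, a mean of 6.28 ± 1.94 (SD, n = 3). Replicate 2 was the low one. The range was 0.64 on the log2 TMM scale, with an adjusted p of 3.29e-79 in the chi-square test, and 0.36 and 0.29 without replicate 1 and without replicate 2. Rc3h1 was above Rc3h2 in 3 of 3 libraries, by 0.13, 0.79 and 0.09 on the log2(TPM + 1) scale. The mean difference of 0.34 ± 0.39 came mostly from replicate 2 and was 0.11 without it.

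On the TMM scale, the stabiliser Elavl1 and the decay factor Khsrp were the steadiest of the 10. In deposited TPM the steadiest was Hnrnpd, described below. Elavl1 (ENSMUSG00000040028.10, mm10 chr8:4285382-4325413, minus strand) stood at 22.6, 17.7 and 18.04 TPM, a mean of 19.5 ± 2.73 (SD, n = 3). On the TMM scale its libraries were at 63.7, 63.2 and 60.7 CPM (library-scaled counts). The range there was 0.07 on the log2 scale, narrower than in all but 3.69% of the well-counted genes, and the chi-square test did not call it (adjusted p 0.235). The neuronal relatives Elavl2, Elavl3 and Elavl4 reached at most 0.01 TPM in any library, so 99.9% or more of the family's TPM was Elavl1.

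Khsrp (ENSMUSG00000007670.10, mm10 chr17:57021051-57031522, minus strand) stood at 16.2, 13.95 and 14.4 TPM, a mean of 14.8 ± 1.17 (SD, n = 3). The range on the log2 TMM scale was 0.10, with 7.39% of the well-counted genes narrower and an adjusted p of 0.00777 in the chi-square test. With replicate 2 or replicate 3 left out, the adjusted p of the chi-square test was 0.196 or 0.143. The related Fubp1 and Fubp3, which share its RNA-binding domains, stood at 17.4 ± 0.40 and 4.73 ± 0.83 TPM.

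Hnrnpd (ENSMUSG00000000568.15, mm10 chr5:99955935-99978938, minus strand) had nearly the same deposited TPM in each library, 42.9, 43.8 and 44.7, a mean of 43.8 ± 0.89 (SD, n = 3). That evenness belongs to the deposited scale. With TPM rescaled to the sum of protein-coding and long noncoding genes it stood at 129, 161 and 160, with replicate 1 the low one. On the log2 TMM scale its range was 0.23, with an adjusted p of 1.03e-06 in the chi-square test. Without replicate 1 the range was 0.05 and the adjusted p of the chi-square test 0.195. Its relatives Hnrnpab, also known to bind AU-rich RNA, and Hnrnpdl stood at 79.95 ± 2.13 and 20.9 ± 2.52 TPM. Hnrnpd was 31.0%, 29.8% and 30.1% of the summed TPM of the 3.

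With 3 libraries, many genes share a pattern, and the count of such genes shows how little the likeness fixes. Among 3736 protein-coding genes with a mean of at least 10 TPM, the ones nearest to Zfp36 in centred log2 TMM values were Phf11a, Sowahc and Ifi208, at distances of 0.06, 0.06 and 0.07, and 11 genes lay within 0.1. For Zc3h12a they were Gpr137b, Fcgr3 and Fam20c, with 30 genes within 0.1. For Hnrnpd they were Pygb, Smap2 and Slc25a4, with 176, and for Elavl1 they were Stx5a, Akt2 and Fam91a1, with 621.

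The transcript tables showed 1 dominant isoform for most of the 10 genes and an open mixture for Hnrnpd. Of their 44 annotated transcripts, a single one took more than 50% of the gene's TPM on average for 9 of the 10 genes in the first deposited transcript table and for 8 in the second, which came from a separate quantification. The leading transcript was the same in both for 8. Zfp36l1-201 and Zfp36l2-201 took 100% of their genes' TPM in the first table, Zc3h12c-202 took 99.7% ± 0.24, Zc3h12a-201 97.2% ± 0.28 and Khsrp-201 96.6% ± 0.56 (SD, n = 3).

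For Zfp36, the spliced transcript Zfp36-201 took 67.9%, 65.9% and 64.2% of the gene's TPM in replicates 1, 2 and 3, a mean of 66.0% ± 1.86 (SD, n = 3). The rest went to Zfp36-202, annotated as a single exon that runs through the gene's only intron of 680 bases, chr7:28378494-28379173. In the second table the share of Zfp36-202 was lower, at 16.1%, 13.7% and 23.7%, a mean of 17.8% ± 5.24. The tables did not overlap in this share. The models also differ at the 5′ end, where Zfp36-201 starts 998 bases further upstream, so reads in that stretch as well as in the intron separate them. A further annotation, RefSeq, places the start of Zfp36 at 28379228, nearer to the 5′ end of Zfp36-202 (28379255) than to that of Zfp36-201 (28380253). The share of Zfp36-202 is therefore not a measure of unspliced RNA alone, and which stretch set it was not tested. Replicate 3 had the highest share of Zfp36-202 in both tables, and Malat1 was highest there too. The part of Malat1 in this was not tested.

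For Elavl1, the transcript Elavl1-204, whose 3′ UTR of 1257 bases is the shorter of the annotated pair, took 70.1%, 76.4% and 73.5% of TPM, a mean of 73.3% ± 3.14 (SD, n = 3), and 72.3% ± 3.70 in the second table. The long form, Elavl1-201, has the same coding sequence of 978 bases and a 3′ UTR of 4218 bases. Among the coding transcripts alone Elavl1-204 took 95.4%. Most of the remainder was Elavl1-203, a retained-intron fragment of 613 bases, at 22.8% ± 3.22 of TPM. Because a short transcript needs few reads to reach a given TPM, the same fragment held 4.89% ± 0.87 of the gene's expected counts.

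The Roquin genes were where the tables differed most. Rc3h1-202, with a 3′ UTR of 7181 bases, took 91.3% ± 7.80 of TPM in the first table and 60.0% ± 11.3 in the second. The rest was nearly all Rc3h1-201, which ends 20 bases after the stop codon in its annotation. Rc3h2-201 took 62.0% ± 4.68 in the first table and 17.3% ± 10.4 in the second, where Rc3h2-202 led with 44.6% ± 1.28. The share of a Roquin isoform therefore depends on the quantification. Retained-intron transcripts of Rc3h2 made up 17.7% of its TPM in replicate 3, against 4.73% and 2.38% in replicates 1 and 2, where Malat1 was at 952, 191 and 133 TPM in the same order; its part in this was not tested. By expected counts the same class held a mean of 2.47% ± 2.69 of the gene, against 8.28% ± 8.27 by TPM (SD, n = 3).

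**Figure D3:**
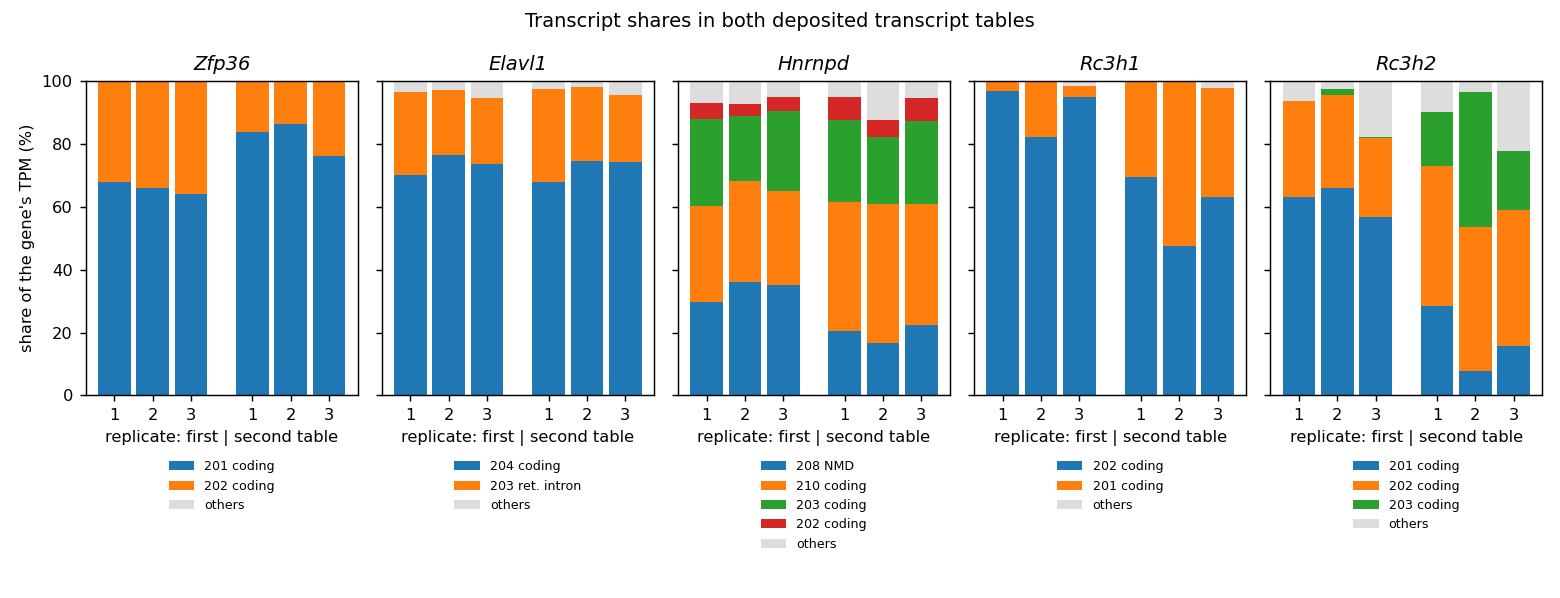
Share of each gene's TPM (percent) taken by its annotated transcripts in replicates 1, 2 and 3, with the first deposited transcript table on the left of each panel and the second on the right. NMD stands for nonsense-mediated decay, ret. intron for a retained intron, and grey for all transcripts under 5% in both tables. Zfp36 and Elavl1 have the same leader on both sides, Rc3h1 has it on average but not in replicate 2 of the second table, and the leader by mean share changes for Hnrnpd and Rc3h2.

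Hnrnpd makes AUF1 isoforms that differ by 2 alternative coding exons, whose lengths of 57 and 147 bases are both multiples of 3. They are shown because the data bear on how often each is used. They are given in lower case, 5′ to 3′ on the minus strand.
Hnrnpd exon 2, mm10 chr5:99976534-99976590: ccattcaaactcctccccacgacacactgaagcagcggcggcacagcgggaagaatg
Hnrnpd exon 7, mm10 chr5:99963731-99963877: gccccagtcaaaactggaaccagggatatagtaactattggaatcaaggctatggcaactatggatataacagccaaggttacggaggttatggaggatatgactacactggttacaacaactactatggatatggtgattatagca

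Among the 4 transcripts with the whole coding ends, exon 7 was mostly included and exon 2 mostly skipped. These 4 leave out Hnrnpd-208 and Hnrnpd-210, which took means of 33.7% and 30.7% of the gene's TPM in the first table. The annotated 5′ end of Hnrnpd-208, at 99976551, lies within exon 2. The exon shares therefore hold for the 4 transcripts and not for all Hnrnpd RNA. Transcripts with exon 7 took 74.0%, 79.4% and 80.4% of the TPM of the 4, a mean of 78.0% ± 3.45 (SD, n = 3), and 75.3% ± 2.58 in the second table. Transcripts with exon 2 took 14.0%, 8.41% and 10.3%, a mean of 10.9% ± 2.85, and 6.85% ± 1.76 in the second table. By combination, Hnrnpd-203 (exon 7 only) took 75.5% ± 2.46, Hnrnpd-202 (neither) 13.6% ± 0.65, Hnrnpd-201 (exon 2 only) 8.43% ± 3.66 and Hnrnpd-211 (both) 2.49% ± 1.29. The order of these 4 forms was the same in both tables.

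Over all annotated Hnrnpd transcripts no form reached 50%. Hnrnpd-208, annotated as a target of nonsense-mediated decay, led the first table with 33.7% ± 3.53 of TPM, and Hnrnpd-210, a coding fragment of 493 bases, led the second with 41.2% ± 2.82 (SD, n = 3). By expected counts Hnrnpd-203 led with 38.7% ± 3.66. The 4 transcripts of the nonsense-mediated decay class together took 36.4% ± 4.94 of TPM in the first table and 24.8% ± 2.93 in the second. Which form leads differed with the measure used.

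The machinery that the regulators call on was present almost in full. Of 55 genes of deadenylation, decapping and exosomal decay, 54 reached 1 TPM in every library, and the exception was Pan2, a deadenylase, at 0.76 ± 0.17 TPM (SD, n = 3). The 3 lists had medians of 8.89 ± 1.24 TPM for deadenylation, 6.72 ± 1.17 for decapping and 4.87 ± 0.53 for the exosome, all below the 21.9 ± 7.51 TPM of the 10 regulators. The chi-square test called 41 of the 55, or 74.5%, near the 72% of all genes tested. By more than 2-fold it called 0 of the 55, beside 19.5% of all genes tested and 3.11% of the well-counted ones.

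Deadenylation was headed by the poly(A)-binding protein gene Pabpc1 at 249 ± 29.4 TPM and the antiproliferative adaptor gene Btg1 at 44.7 ± 17.6. The scaffold of the CCR4-NOT complex, Cnot1, stood at 15.7 ± 1.40. Decapping was headed by the cap-binding gene Eif4e2 at 33.3 ± 3.38, the helicase gene Ddx6 at 32.96 ± 7.23 and Lsm14a at 31.9 ± 3.98, with the decapping cofactor Dcp1b lowest at 1.68 ± 0.16. The exosome was headed by its nuclease Exosc10 at 11.9 ± 0.46, Wdr61 at 10.9 ± 0.53 and Exosc9 at 9.16 ± 0.41, and the nuclease Dis3 was lowest at 1.42 ± 0.28 TPM.

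Signalling genes that act on these regulators were all detected, 15 of 15, with a median of 18.5 ± 2.68 TPM. Mapkapk2, the p38-activated kinase that phosphorylates tristetraprolin, was highest at 125 ± 28.2 TPM, followed by Ywhaz and Ywhae, which encode phosphoserine-binding adaptors, at 99.7 ± 22.7 and 98.5 ± 9.59. Of the 15, 12 were called, or 80%, near the 72% of all genes tested. By more than 2-fold 1 was called, or 6.67% beside 19.5% of all genes tested: Dusp1, the phosphatase that switches p38 off, at 32.6, 18.2 and 11.9 TPM. Of 25 other proteins that bind unstable mRNAs, 23 were detected, among them Pcbp2 at 174 ± 32.3 and Ybx1 at 116 ± 6.89 TPM, with Samd4 lowest at 0.35 ± 0.13. The chi-square test called 23 of these 25, or 92%, and 0 by more than 2-fold, beside 72% and 19.5% of all genes tested and 96.0% and 3.11% of the well-counted ones.

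The mRNAs that the regulators are known to act on had a median range between libraries of 1.13 for AU-rich targets and 0.97 for stem-loop targets on the log2 TMM scale, beside 0.48 for the regulators and 0.44 for all genes tested. Of 23 mRNAs with described AU-rich elements, 18 were detected, with a median of 32.6, 41.2 and 21.3 TPM in replicates 1, 2 and 3. The highest were the chemokine mRNAs Ccl4 at 1449, 828 and 793 TPM and Ccl3 at 1165, 762 and 678, then Tnf at 617, 492 and 406, and Lif, a cytokine of the interleukin 6 family, was lowest at 0.06 ± 0.05. The chi-square test called 22 of the 23, or 95.7%, beside 72% of all genes tested and 96.0% of the well-counted ones. By more than 2-fold it called 12, or 52.2%, beside 19.5% of all genes tested and 3.11% of the well-counted ones. These counts and the median range take in all 23, also those not detected. Called and lowest in replicate 3 were 19 of the 23, against 4 of the 10 regulators and 23.2% of all genes tested. Between replicates 1 and 2 alone, 6 of the 23 and 12.8% of all genes tested differed by more than 2-fold, as did 1 of the 10 regulators, Zfp36l1. These counts asked for no chi-square call, and the 23 include genes that were not detected. Of those, Csf2 stood at 0.9 and 2.53 TPM in replicates 1 and 2, Csf3 at 0.16 and 0.37 and Il23a at 0.15 and 0.32. The high Malat1, Neat1 and mitochondrial levels of replicate 3 go with the low of these targets there, and their part in it was not tested.

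Of 10 mRNAs described as stem-loop targets of Regnase-1 or Roquin, several of them on the AU-rich list too, 8 were detected and 8 could be tested. All 8 were called, beside 72% of all genes tested and 96.0% of the well-counted ones. Of them, 7 were called and lowest in replicate 3, beside 23.2% of all genes tested. By more than 2-fold 4 were called, beside 19.5%: Il6, Il12b, Lcn2 and Ptgs2. Between replicates 1 and 2 alone, with no call asked for, 2 of the 8 differed by more than 2-fold, beside 12.8%. Nfkbiz, a nuclear NF-kappaB cofactor, stood at 125, 103 and 72.3 TPM. Ptgs2, the inducible cyclooxygenase, stood at 67.7, 41.2 and 23.2. Icos and Tnfrsf4, which encode costimulatory receptors of T cells, were near 0, Icos at 0.01 TPM and Tnfrsf4 at 0.06 ± 0.05. On the log2 TMM scale the median of replicate 3 against the mean of the others was -0.67 for the AU-rich list and -0.60 for the stem-loop list. It was -0.07 for the 10 regulators, -0.01 for the 55 decay machinery genes and -0.01 for all genes tested. For the well-counted genes it was -0.10. Of these genes 28.2% lay higher in replicate 3 than in the mean of the others, as did 3 of the 10 regulators. Among the regulators Zfp36, at -0.59, and Zc3h12a, at -0.51, were the lowest there, and Zfp36l1, at 0.23, the highest. The Zfp36 value rests on its high replicate 1, since replicates 2 and 3 differed by 0.17.

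**Figure D4:**
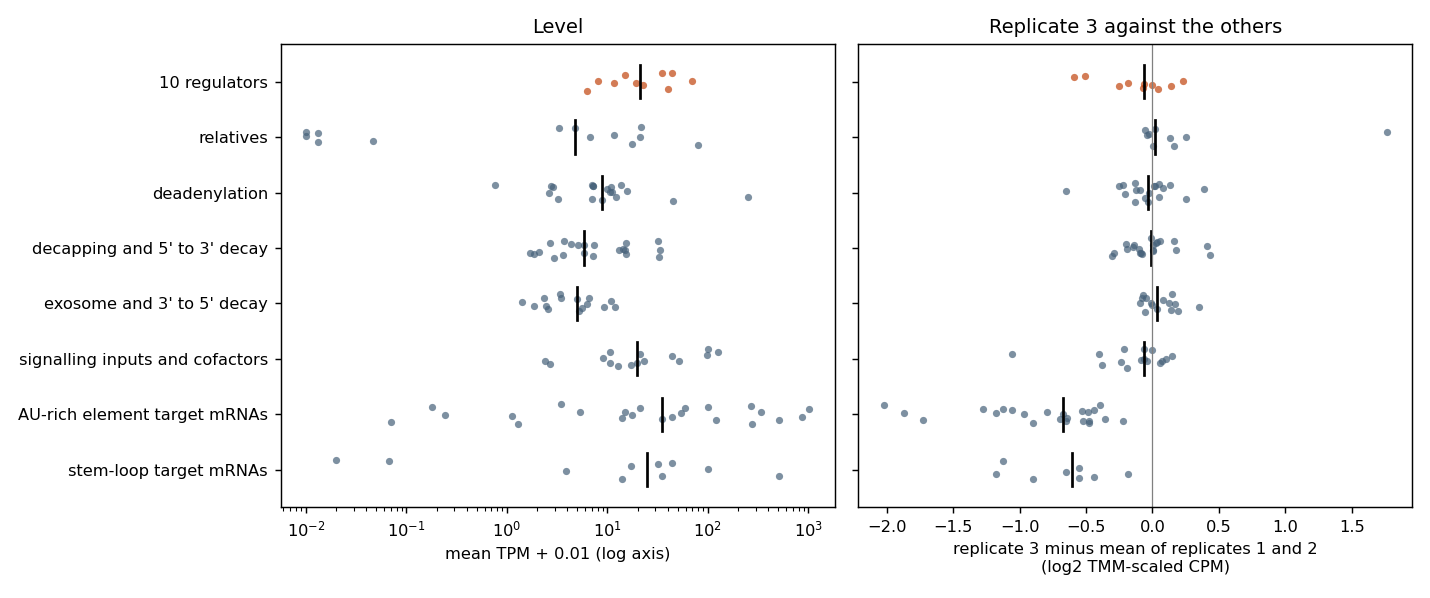
Left, mean TPM + 0.01 of each gene (log axis) for the 10 regulators (orange) and each list (blue); right, replicate 3 minus the mean of replicates 1 and 2 in log2 TMM-scaled CPM for the genes tested. Black bars are medians, and the target lists lie at -0.67 and -0.60 while the regulators and the decay machinery lie near 0.

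Some of these values carry limits of annotation. Genes on the opposite strand overlap Zfp36, Zfp36l1, Zfp36l2, Zc3h12c, Elavl1, Khsrp and Hnrnpd, and whether counting used the strand is not given in the sources used here. Those overlapping genes were low: Gm44710 over Zfp36 at 0.52, 0.61 and 0 TPM, Gm26669 over Zfp36l1 at 1.06, 0 and 0, and the chemokine gene Ccl25 at the start of Elavl1 at 2.44, 1.56 and 2.63.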

How the data were processed

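The deposited gene table and first transcript table of each library held, per the file headers, TPM and expected counts of the authors, and the second transcript table held their estimated counts and a TPM of its own; build mm10 and annotation M21 are named in the notes deposited beside them. The name of the aligner or quantifiers is not given in the sources used here. Of 81881 rows, 55536 were genes; the others held 0.350%, 0.169% and 0.168% of expected counts and were left out. TPM was kept as deposited. Expected counts were rounded, scaled by TMM (edgeR 4.0.16; DESeq2 1.42.0 size factors as an alternative) and compared between libraries by a chi-square test of genes with at least 10 counts in 1 library (R 4.3.3), checked on simulated data. In the simulation, unchanged genes varied by counting error only. It therefore checked the calculation and not how the test behaves with other variation between libraries. Shares, motifs and figures used Python 3.11.15, pandas 2.3.3 and matplotlib 3.10.9. Detection was 1 TPM in every library. Symbols Zcchc6 and Zcchc11 were matched as Tut7 and Tut4.

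The genes named are the 10 regulators, their relatives, the highest 3 and the lowest of each list, transcripts of at least 5% of a regulator's TPM, and the nearest 3 genes to 4 regulators; others were named after their values were seen. A few list genes are not reported here. The members, though taken by name, and the lists were chosen with earlier results of these data known. Alternatives were other scalings, filters, pseudocounts, the second quantification and leaving out each library.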

Additional observations from a re-analysis of the deposited data

How the results depend on the processing

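No paired analysis was possible because the labels give 1 group, so no samples can be paired across groups. Over 38 results there were 209 alternatives. Of these, 169 values moved by less than the spread between libraries, or for counts by less than 1.5 times, and 40 moved by more. Among the 40, 19 came from rescaling TPM, which raises every level. A change of direction was counted only for paralog pairs with the same sign in all 3 libraries, and there were 0. For such pairs leaving out a library cannot change the sign of the mean. Of the 209 alternatives, 114 leave out a library. For a mean of 3 libraries such a change is always smaller than the SD, so those that are means say nothing about stability. The mean of Zfp36l1 went from 22.6 to 14.8 TPM without replicate 1. The difference of Zc3h12a over Zc3h12c, 0.21 on the log2 scale and smaller than its SD, was -0.03 without replicate 2. That change of sign was not counted, because the libraries differed in sign from the start. The count of genes called between libraries was 10485 and ranged from 7294 to 8282 with 1 library left out, with 7 to 8 of the 10 regulators. The share of tested genes called was then 52.5% to 57.1%, in place of 72%. The count was 2652, or 96.0%, among genes counted as deeply as the regulators, where fewer genes were tested. Asking also for more than 2-fold left 2 regulators of 9, beside 19.5% of all genes tested and 3.11% of the well-counted ones. The median level of the 10 was 73.2 TPM in place of 21.9 after rescaling over protein-coding and long noncoding genes, which takes out the signal recognition particle RNAs; it left the order of the paralog pairs as it was. Alternatives of depth, more than 2-fold, shares of expected counts and replicates 1 and 2 alone were chosen after seeing the data.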
